A study of Mus musculus with 3 samples.

Results

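The Egr, Nr4a and Ier immediate early genes were described as 9 genes of the 23234 listed in each table, found by their symbols: Egr1, Egr2, Egr3, Nr4a1, Nr4a2, Nr4a3, Ier2, Ier3 and Ier5. RNA was sequenced from 3 sorted cell populations of wild-type C57BL/6J mice aged 6 to 15 weeks, all of which had received lipopolysaccharide (LPS), a bacterial cell wall component, in both nostrils (10 µg in 10 µL). Double-positive cells (DP) were nasal cells sorted as CD45+Ly6G+SiglecF+ on day 2 after LPS. Nasal neutrophils were sorted as CD45+Ly6G+SiglecF- on day 1, and the same gate and day applied to the neutrophils from peripheral blood. Each group was 1 library, so neither a replicate error nor a test can be given, and how many mice gave each library, and whether the libraries were prepared together, is not given in the sources used here. DP differed from the nasal neutrophils in gate and in day at once, and the effects of these cannot be told apart.

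Immediate early genes are transcribed within minutes of a stimulus from factors already present in the cell, without new protein synthesis. MAP kinases act on serum response factor and its Elk partners, and on CREB, at their promoters, and NF-kappaB acts at some of them. In neutrophils and macrophages such genes respond to bacterial products, adhesion and cytokines, and they are also known to respond to the dissociation of tissue into single cells. Egr proteins are zinc finger transcription factors that bind GC-rich sites, Nr4a proteins are orphan nuclear receptors, and the Ier proteins are small regulators of survival and stress signalling.

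Levels are given in FPKM, in which fragments are scaled by transcript length and by library size, which allows genes to be compared per length. From the steps between low values, depth was about 12800000 fragments for nasal neutrophils, 54300000 for DP and 53900000 for blood. Siglec5, the symbol under which the SiglecF gene is listed, had a level of 168 FPKM in DP against 9.92 (nasal) and 18.7 (blood) in the neutrophil libraries, and Ly6g was not analysed here. Of the 13 neutrophil markers with a row, all 13 reached 1 FPKM in both nasal libraries and 12 in blood, where S100a8 was listed at 0. Summed, these markers reached 61763 FPKM in nasal and 80929 in blood neutrophils but 15737 in DP. In blood neutrophils 91 genes were listed at 0 while at 10 FPKM or more in both other libraries. Some of these, such as Omp and Epcam, mark other cells and may be absent there. For others, such as S100a8, a 0 may be a failed estimate. Both nasal libraries also held markers of the tissue around the cells. The 10 olfactory neuron markers summed to 978 FPKM in nasal neutrophils, 1975 in DP and 4.89 in blood, where Omp, Gng13, Gap43, Cnga2 and Rtp1 were at 0. The 11 epithelial markers summed to 348, 722 and 1.19 FPKM in that order, with 6 at 0 in blood, among them Epcam and Foxj1. The 11 macrophage markers with a row summed to 1014, 736 and 550.3 FPKM. Of these, C1qa, C1qb, C1qc, Mrc1, Mertk and Marco were at 0 in blood, and Marco in DP as well. Not all were lower in blood. Emr1 was at 59.9 FPKM in nasal neutrophils, 47.2 in DP and 78.8 in blood, and Cd68 at 181, 296 and 235. The part of these other cells in the levels of the 9 genes was not tested, and in bulk samples fewer cells of a type and less RNA per cell cannot be told apart.

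All 9 genes were lowest in blood neutrophils. Together they summed to 179 FPKM in blood neutrophils, 4973 in nasal neutrophils and 3649 in DP, which was 0.027%, 0.802% and 0.572% of each library's FPKM sum. Each family held genes of both orders between the nasal libraries. Egr1, Egr3, Nr4a1, Nr4a3, Ier3 and Ier5 were lower in DP than in nasal neutrophils, while Egr2, Nr4a2 and Ier2 were higher in DP.

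**Figure D1:**
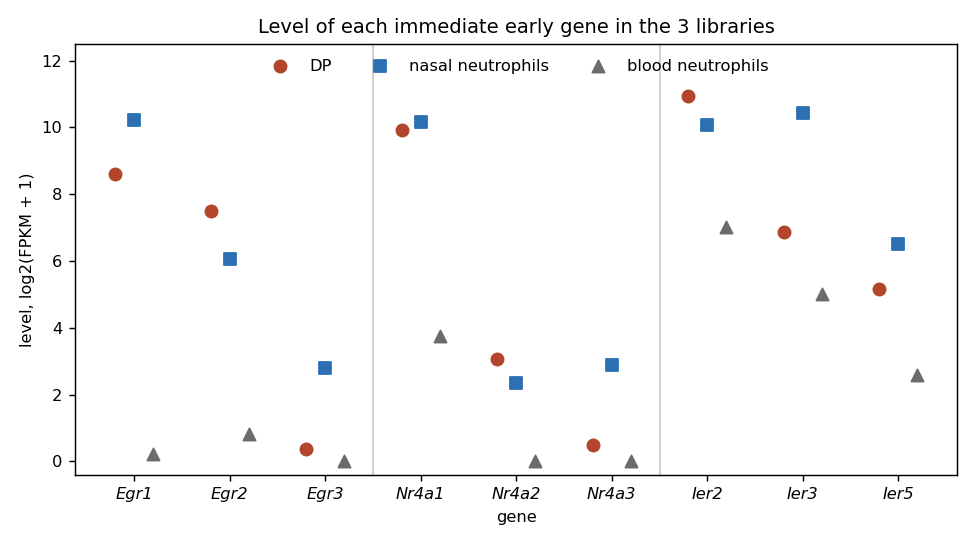
Level of each of the 9 genes, as log2(FPKM + 1), in the DP (circles), nasal neutrophil (squares) and blood neutrophil (triangles) libraries; each point is 1 library. The triangle is the lowest point for all 9 genes, at 0 for Egr3, Nr4a2 and Nr4a3, and the circle lies above the square for Egr2, Nr4a2 and Ier2.

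The Egr family was nearly silent in blood neutrophils and held Egr1 and Egr2 in both nasal libraries. Egr1, the founding member and a sensor of MAP kinase activity in many cells, stood at 1198 FPKM in nasal neutrophils, 385 in DP and 0.172 in blood neutrophils. It was the gene with rank 69 of the nasal neutrophil library and rank 268 of the DP library. The blood level, on about 42 fragments, is low and imprecise and lies below the pseudocount of 1. The Egr1 ratio of nasal to blood neutrophils therefore depends on the pseudocount. It was 10.00 on the log2(FPKM + 1) scale, 12.10 with a pseudocount of 0.1 and 7.86 with 5. At 10.00 it lay above the ratios of 99.9% of the 10719 genes with a mean of 1 FPKM or more. Between the nasal libraries Egr1 was 3.11-fold lower in DP.

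Egr2, also called Krox20, which acts in myelin-forming cells, macrophages and anergic T cells, was the Egr gene with the opposite order. Its level was 66.2 FPKM in nasal neutrophils, 181 in DP and 0.771 in blood. It was thus 2.73-fold higher in DP than in nasal neutrophils, and 85.9-fold higher in nasal than in blood neutrophils, where about 123 fragments carried it. Egr2 made up 31.9% of the summed Egr level in DP and 5.21% in nasal neutrophils, with Egr1 at 68.0% and 94.3%. In blood neutrophils the whole family summed to 0.943 FPKM, of which Egr2 held 81.7%.

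Egr3, which shares its zinc fingers and many targets with Egr2, reached 5.97 FPKM in nasal neutrophils and 0.291 in DP, with a listing of 0 in blood. The DP level, on about 62 fragments, was 20.5-fold below that of nasal neutrophils, so Egr2 and Egr3 differed between the nasal libraries in opposite directions. Egr4, the remaining gene of the family, was listed at 0 in all 3 libraries.

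The Egr2 promoter is shown because it holds a CArG box, the site of serum response factor, beside a CRE core (TGACG or its reverse complement CGTCA), a short element bound by CREB family factors. Promoters were the 250 bases before each RefSeq transcription start (GRCm38.p6), searched on both strands. Windows were searched for 6 of the 9 genes, and none is reported here for Egr1, Egr3 and Ier2. A CArG box lay in 4 of the 5 windows listed for Egr2, which has several starts and whose windows overlap, and in 1.47% of all 32841 windows. The Egr2 stretch, chr10:67537793-67537822 on the plus strand, has the CArG box and the CRE core in capitals.
Egr2: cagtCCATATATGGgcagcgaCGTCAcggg

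**Figure D2:**
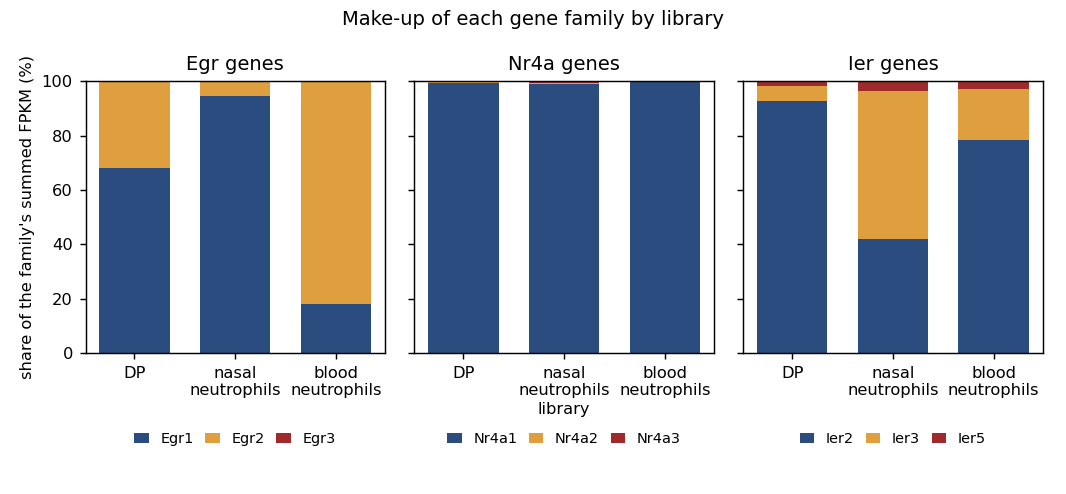
Share (%) of each family's summed FPKM held by each of its genes, one bar per library. Egr2 takes 31.9% of the Egr sum in DP against 5.21% in nasal neutrophils, Nr4a1 takes nearly all of the Nr4a sum in each library, and Ier2 takes 92.8% of the Ier sum in DP against 41.9% in nasal neutrophils. The blood bar of the Egr panel divides a sum of only 0.943 FPKM.

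In the Nr4a family nearly the whole level was that of Nr4a1. Nr4a1 (Nur77), a receptor induced by antigen receptor and Toll-like receptor signals and needed for patrolling monocytes, stood at 1138 FPKM in nasal neutrophils, 969 in DP and 12.4 in blood neutrophils. The nasal libraries differed by 1.18-fold, the smallest difference between them among the 9 genes. Nasal neutrophils were 91.6-fold and DP 78.0-fold above blood neutrophils. Nr4a1 held rank 84 in DP, rank 74 in nasal neutrophils and rank 3108 in blood neutrophils, and made up at least 99.1% of the Nr4a sum in each library.

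Nr4a2 (Nurr1), best known from dopamine neurons and also induced in activated myeloid cells, reached 4.07 FPKM in nasal neutrophils and 7.31 in DP, and the blood library listed it at 0. DP was 1.80-fold above nasal neutrophils, whose level rests on about 186 fragments. The olfactory neuron markers summed higher in DP as well, with a median log2 ratio of 1.28 over 10 genes; their part in the Nr4a2 level was not tested. Nr4a3 (Nor1), a relative with overlapping roles in blood cell growth, had the other order, with 6.34 FPKM in nasal neutrophils, 0.42 in DP and a listing of 0 in blood neutrophils. It was 15.1-fold lower in DP, on about 131 fragments there. The retinoid X receptor gene Rxrb, whose product can pair with Nr4a1 and Nr4a2, was at 4.28 FPKM in nasal neutrophils, 5.87 in DP and 8.07 in blood, an order that none of the 3 Nr4a genes had.

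Promoters of the Nr4a genes are shown for what the 3 share: 4 CRE cores each within 250 bases. At least 1 core lay in 17.8% of all windows and at least 4 in 0.137%. Of the Nr4a3 window, 152 of the 250 bases lie in an annotated Nr4a3 exon, against 0 for Nr4a1 and Nr4a2. Its cores were counted over the whole window, exon included. The windows of Nr4a1 and Nr4a2 were rich in G and C (74.4% and 80%, against a mean of 53.2% over all windows), and each also held 1 Egr site (GCGNGGGCG, found in 4.7% of windows). Capitals mark the CRE cores and the Egr site, which do not overlap here. A match describes the letters only and shows no binding. Nr4a1 lies at chr15:101266596-101266845 on the plus strand and Nr4a2 at chr2:57124004-57124253 on the minus strand. For Nr4a3 a stretch with 2 of its 4 cores is given, at chr4:48045084-48045113 on the plus strand.
Nr4a1: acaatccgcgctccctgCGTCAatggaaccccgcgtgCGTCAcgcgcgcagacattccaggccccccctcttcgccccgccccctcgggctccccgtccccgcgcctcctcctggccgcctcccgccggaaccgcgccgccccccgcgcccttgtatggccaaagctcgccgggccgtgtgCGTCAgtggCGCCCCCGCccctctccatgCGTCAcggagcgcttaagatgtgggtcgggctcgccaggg
Nr4a2: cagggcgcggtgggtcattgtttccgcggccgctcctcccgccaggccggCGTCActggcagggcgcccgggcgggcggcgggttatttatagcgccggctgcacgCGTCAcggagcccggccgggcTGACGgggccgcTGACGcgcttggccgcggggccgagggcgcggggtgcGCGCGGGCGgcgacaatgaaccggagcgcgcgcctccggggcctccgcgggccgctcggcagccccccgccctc
Nr4a3: tcccatgtCGTCAcatTGACGtctcgcatt

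The Nr4a genes thus shared these letters while their levels differed: Nr4a1 was above the other 2 by more than 100-fold in both nasal libraries. None of the 6 genes with a window held the CRE palindrome TGACGTCA (1.55% of windows), an AP-1 site (TGANTCA, 6.75%) or the Nr4a monomer site NBRE (AAAGGTCA, 1.34%), which says only that these letters are not in these windows.

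Ier2 and Ier3 were the highest members in blood neutrophils. Ier2, a nuclear regulator induced by growth factors, stood at 1070.0 FPKM in nasal neutrophils, 1955 in DP and 129.9 in blood. DP was 1.83-fold above nasal neutrophils, and nasal neutrophils 8.24-fold above blood neutrophils. Ier2 was the 33rd gene by level in DP, the highest rank of any member in any library, and alone made up 53.6% of the summed level of the 9 genes there. In blood neutrophils it made up 72.4% of that sum.

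Ier3 (IEX-1), a target of NF-kappaB that affects ERK signalling and apoptosis, was the member with the highest level in nasal neutrophils. It stood at 1394 FPKM there, 116 in DP and 31.0 in blood. DP was 11.97-fold below nasal neutrophils and 3.75-fold above blood neutrophils. Of the 9 genes only Ier3 was both abundant and more than 10-fold lower in DP. Ier5, which modulates heat shock factor activity, stood at 90.1 FPKM in nasal neutrophils, 34.6 in DP and 5.05 in blood neutrophils, 2.61-fold lower in DP and 17.8-fold higher in nasal than in blood neutrophils. Within the family Ier3 held 54.6% of the summed level in nasal neutrophils and 5.53% in DP.

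The Ier3 promoter is shown for its kappaB site, in capitals, which 3.9% of all windows held and which was found in none of the other 5 members with a window. The stretch lies at chr17:35821463-35821683 on the plus strand.
Ier3: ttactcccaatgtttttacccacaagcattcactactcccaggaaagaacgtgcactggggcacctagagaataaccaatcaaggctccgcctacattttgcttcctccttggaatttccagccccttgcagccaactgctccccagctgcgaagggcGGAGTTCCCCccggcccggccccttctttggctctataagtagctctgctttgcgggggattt

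Nasal neutrophils were compared with blood neutrophils to ask what distinguishes the SiglecF-negative cells of both places on the same day. On the log2(FPKM + 1) scale all 9 genes were at least 4-fold higher in nasal neutrophils, as were 13.1% of the 10719 tested genes; 0 were at least 4-fold lower, as were 3.23% of tested genes. Of these 9, Egr3, Nr4a2 and Nr4a3 were listed at 0 in blood neutrophils and passed the level filter only through the nasal libraries, so they had to differ, and no fold is given for them. Egr1 and Egr2, at 0.172 and 0.771 FPKM in blood neutrophils, also passed the filter only through the nasal libraries. The median log2 ratio of the 9 genes was 3.91, beside 0.41 for all tested genes, and the ratios ran from 2.34 for Nr4a2 to 10.00 for Egr1. Centred on the median of all tested genes, 8 of the 9 were at least 4-fold higher, as were 968 of the 10719. Nr4a2, at 1.93, was not. With a pseudocount of 5 in place of 1, 6 of the 9 passed. The log2 ratios of Egr3, Nr4a2 and Nr4a3 were then 1.13, 0.86 and 1.18. The share of all tested genes at that pseudocount was not computed, for this or the other comparisons.

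DP were compared with nasal neutrophils to ask how SiglecF-positive and SiglecF-negative cells of the nose differ. Of the 9 genes Ier3, Egr3 and Nr4a3 were at least 4-fold lower in DP, with log2 ratios of -3.57, -2.43 and -2.37, and 3.62% of all tested genes were that much lower. None of the 9 was at least 4-fold higher, as 8.42% of tested genes were. At 2-fold 5 of the 9 were lower (11.3% of tested genes) and 1, Egr2, was higher (33.6%). Egr3 and Nr4a3 passed the filter through nasal neutrophils alone, and with a pseudocount of 5 only Ier3 was still at least 4-fold lower. The median over the 9 genes was -1.36 and over all tested genes 0.57. Relative to that shift, Egr1, at -2.21, joined Ier3, Egr3 and Nr4a3 past 4-fold, and 773 of all 10719 tested genes were that much lower. Egr2, Ier2 and Nr4a2 remained above 0, at 0.86, 0.29 and 0.14. Egr2 ranked above 80.2% of tested genes in this ratio, Ier2 above 61.1% and Nr4a2 above 54.9%, so the Ier2 and Nr4a2 ratios were near the middle of all genes. Ier3 ranked above 0.634%. Under the 3 other scalings that were tried each of the 9 genes kept its direction between the nasal libraries. The lowest ratios of Nr4a2 and Ier2 were then only 0.14 and 0.21. The 2 other pseudocounts cannot change a direction.

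DP against blood neutrophils shares its libraries with both comparisons above, and its values are given for their own sake. In this ratio 6 of the 9 genes, Egr1, Egr2, Nr4a1, Nr4a2, Ier2 and Ier5, were at least 4-fold higher in DP, as were 24% of tested genes, and 0 were at least 4-fold lower, against 3.57%. Of those called, Egr1, Egr2 and Nr4a2 passed the level filter only through the nasal libraries, and Nr4a2 was listed at 0 in blood. Without the members at 0 in blood, 5 of 6 were at least 4-fold higher. The log2 ratio of Egr2 was 6.68 and that of Nr4a1 was 6.17. Ier3, at 1.87, missed 4-fold. With a pseudocount of 5, 4 of the 9 passed, and Nr4a2 and Ier5 were at 1.30 and 1.98. Centred on the median of all tested genes, 5 passed, beside 1116 of the 10719, and Ier5 was at 1.60. Egr3 and Nr4a3, at 0.37 and 0.51, were below the median of all tested genes, 0.95, and turn to -0.58 and -0.45 when centred on it.

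**Figure D3:**
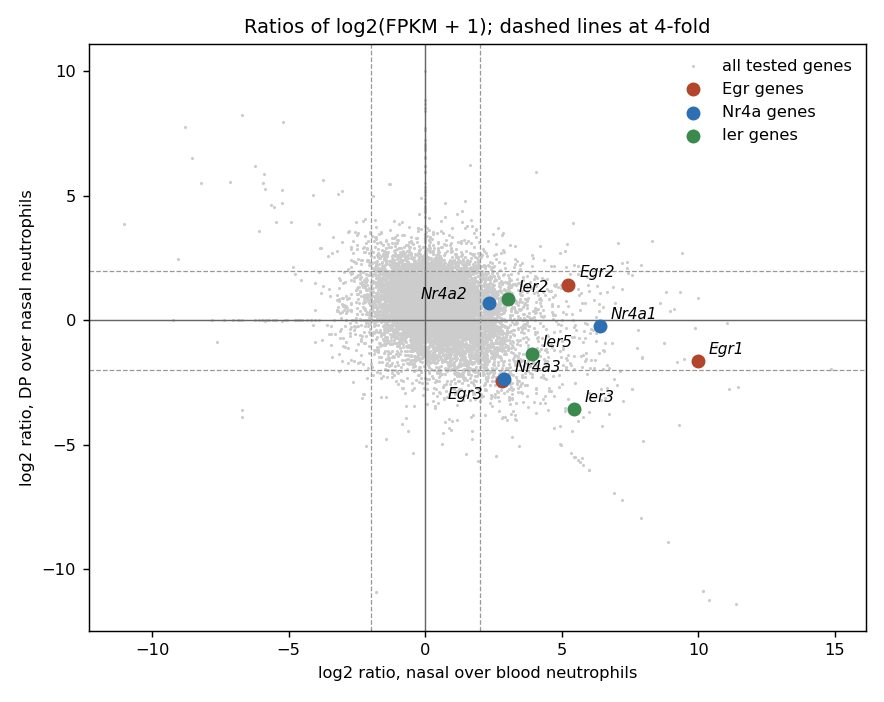
Log2 ratio of FPKM + 1 for nasal over blood neutrophils (x axis) against DP over nasal neutrophils (y axis); grey points are the 10719 tested genes, coloured points the 9 members and dashed lines 4-fold. All 9 lie to the right of the dashed line at 2, and they spread from 1.44 (Egr2) to -3.57 (Ier3) on the y axis. Both axes use the nasal neutrophil library, so the position along one is not independent of the other.

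With a pseudocount of 1, the members nearest to each other in pattern came from different families. Distance was taken in the plane of these 2 ratios, over 3 libraries only. Of the 36 pairs of members the closest was Egr3 with Nr4a3, 0.10 log2 units apart, followed by Nr4a2 with Ier2 at 0.71, both pairs from different families. Egr3, Nr4a2 and Nr4a3 were listed at 0 in blood, so the pseudocount sets their nasal to blood ratios and these distances. The Nr4a2 ratio was 5.38 with a pseudocount of 0.1 and 0.86 with 5, while that of Ier2 was 3.04 and 2.99. Within families the closest pair was Ier2 with Ier5, at 2.39. Of the 6246 other genes with a mean of 5 FPKM or more, those nearest to the members' median on both axes included Ell2, Klk1, Socs3, Ms4a6c, Pwp1, Slc7a11, 1810011O10Rik, Ets2 and Mllt6, all within 0.29 log2 units. The median was the Ier5 value on both axes, so these genes are neighbours of Ier5 rather than of all members. Egr1 lay 6.09 and Egr2 3.10 log2 units from Ier5. Ell2, a transcription elongation factor gene, had 36.2 FPKM in nasal neutrophils, 12.3 in DP and 1.46 in blood. Socs3, a feedback inhibitor of cytokine receptors, had 1018, 398 and 58.8 FPKM in that order, and Ets2, a transcription factor gene of the MAP kinase pathway, 268, 86.1 and 16.2.

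Genes of the pathway around the members were read from lists. Among 40 other immediate early genes, of which 38 were tested, 32 were at least 4-fold higher in nasal than in blood neutrophils and 0 lower, with a median log2 ratio of 3.55. In DP against nasal neutrophils 10 of the 38 were at least 4-fold lower and 0 higher, with a median of -1.10. The 4 with the largest nasal to blood ratio were Ptgs2, Plk3, Dusp2 and Maff. Plk3, a stress-responsive kinase gene, had 499.9 FPKM in nasal neutrophils, 232 in DP and 1.31 in blood, and Maff, a small Maf factor gene, 165, 31.3 and 0.384.

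Of 22 tested upstream kinases and promoter factors, 4 were at least 4-fold higher and 1 lower in nasal than in blood neutrophils, with a median log2 ratio of 0.55, beside 0.41 for all tested genes. Those with the largest nasal to blood ratio were Crtc2, a CREB coactivator gene, the kinase gene Mapkapk2, Crem, a CREB family gene, and Map3k8. Crtc2 had 32.3 FPKM in nasal neutrophils, 3.58 in DP and 2.18 in blood. Mapkapk2 had 52.1, 16.4 and 4.53 FPKM in that order, and Crem 20.3, 9.19 and 3.26. Map3k8, which encodes the kinase that links Toll-like receptors to ERK, was higher in DP, with 111, 180.4 and 21.8 FPKM.

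Genes known as Egr targets were mixed. Of 10 listed, 6 were tested. In nasal over blood neutrophils 4 were at least 4-fold higher (13.1% of all tested genes) and 0 lower, with a median log2 ratio of 4.23. In DP over nasal neutrophils 2 were at least 4-fold lower (3.62% of all tested genes) and 0 higher, with a median of -1.85. Nab2, both a target and a corepressor of Egr proteins, stood at 4.87 FPKM in nasal neutrophils, 0.144 in DP and 0.214 in blood neutrophils. Like Egr1 and Egr3, and unlike Egr2, it was lower in DP than in nasal neutrophils. The related corepressor Nab1 was at 4.12 FPKM in nasal neutrophils, 3.62 in DP and 1.14 in blood. F3, which encodes tissue factor, stood at 113 FPKM in nasal neutrophils, 32.2 in DP and 0.143 in blood neutrophils. Icam1 was at 412 FPKM in nasal neutrophils, 109 in DP and 4.64 in blood, and Cdkn1a at 106, 118 and 0.409 in that order. Cd44, an adhesion receptor gene, was near equal in nasal and blood neutrophils, at 372 and 356 FPKM, and at 72.7 in DP.

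Heat shock genes, which are also known to respond to handling of tissue, were also higher in the nose than in blood. All 12 were tested, and 6 were at least 4-fold higher in nasal than in blood neutrophils and 0 lower, with a median log2 ratio of 2.03. Summed levels were 1389 FPKM in nasal neutrophils, 1415 in DP and 480.5 in blood, and Hspb1 was at 0 in blood. In DP against nasal neutrophils 0 were at least 4-fold higher, while 2, the near-identical copies Hspa1a and Hspa1b, were at least 4-fold lower. How the nasal tissue was made into single cells is not given in the sources used here, and the part of handling in the levels of the 9 genes was not tested. Housekeeping genes had a median log2 ratio of 0.08 between nasal and blood neutrophils, and 0 of 12 passed 4-fold in either direction.

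**Figure D4:**
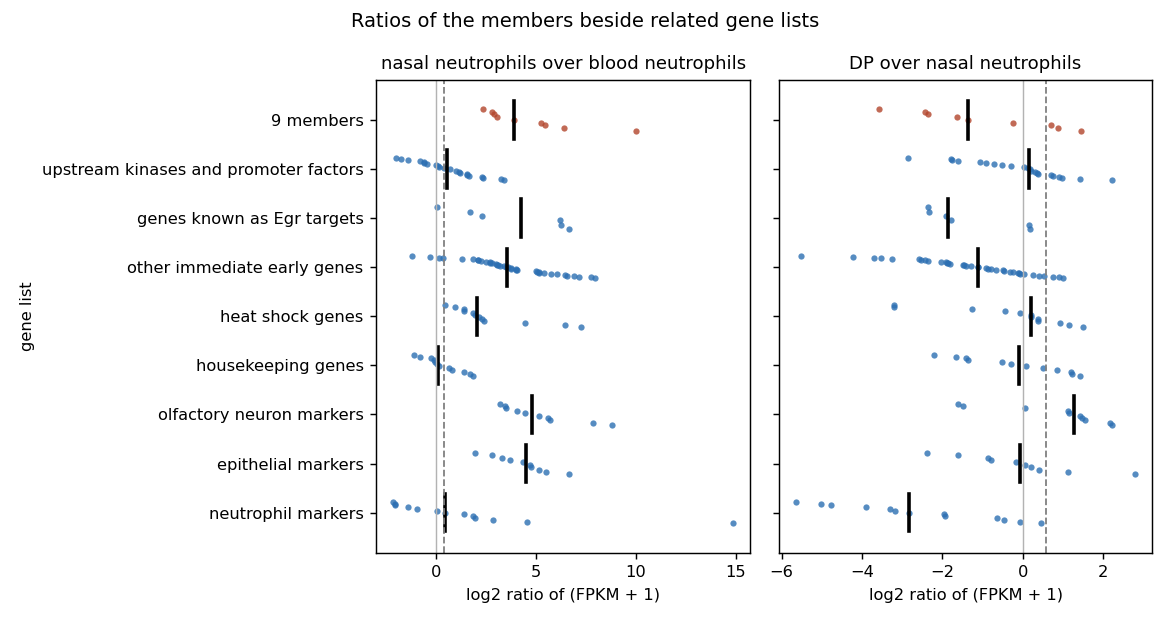
Log2 ratios of FPKM + 1 for the 9 members (red) and the tested genes of related lists and markers (blue), 1 point per gene, with the median as a black bar, the median of all tested genes as a dashed line and 0 as a thin line; the left panel is nasal over blood neutrophils and the right panel DP over nasal neutrophils. The members' medians, 3.91 and -1.36, lie near those of the other immediate early genes, 3.55 and -1.10, and the point at the far right of the neutrophil markers is S100a8, listed at 0 in blood.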

How the data were processed

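Values are FPKM as the authors deposited them, 1 library per table. The submitters' processing notes name Cufflinks 2.1.1, TopHat2 2.0.8, Bowtie2 2.1.0 and the mm9 build, without settings. FPKM are estimates, so no count model was used, and with 1 library per group no test was possible. Values above 0 and below 1e-06 were set to 0 (32, 20 and 43 genes in DP, nasal and blood neutrophils). Ratios are on the log2(FPKM + 1) scale, so changes of low genes are understated, and cover 10719 genes with a mean of 1 FPKM or more, and called at 4-fold. All 9 members passed. The 4-fold call was run on simulated data, where genes at 5 FPKM or more were raised by much more than 4-fold under an assumed noise. That run checks the computation only, and not calls at low levels or the spread between libraries. Fragment numbers behind a level are approximate, from the steps between low values of genes with 1 transcript over 1500 nt and each member's longest coding transcript (GENCODE M21, lengths only). They cover counting error only. No annotated gene overlaps a member there.

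All 9 members are named, with at most 4 genes of a longer list by nasal to blood ratio and the 10 genes nearest to the members' median, of which 1 is not reported here. Which list genes are given with values was decided after the values were seen. Members and lists were chosen with earlier results of these data known. Listed markers without a row of that name were not analysed here. Alternatives were 2 other pseudocounts, 2 other filters, 3 scalings, a 2-fold threshold and leaving out members at 0. Analyses used Python 3.11.15, pandas 2.3.3 and numpy 2.4.6.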

Additional observations from a re-analysis of the deposited data

How the results depend on the processing

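No direction of a called ratio reversed under any alternative, but pseudocounts, filters and the 2-fold threshold cannot reverse one. Centring shifted ratios by at most 0.95 log2 units, so it could not reverse a 4-fold call either. Of 78 recomputed counts and medians, 62 stayed within 1.5 times. These include counts of 0 that stayed 0, and a setting without a filter that could change nothing because all 9 members passed the filter. Of the recomputed ratios of single members, 89 stayed within that limit and 46 did not. The median log2 ratio of the members for nasal over blood neutrophils (3.91) was 5.92 with a pseudocount of 0.1, 3.24 with 5, and 5.34 with a mean filter of 5 FPKM or without members at 0. For DP over blood neutrophils the median (3.06) was 3.91 with a pseudocount of 0.1, 1.98 with 5, 5.04 with a filter of 5 FPKM or without members at 0, 3.64 rescaled to a sum of 1000000 and 2.103 with centred ratios. For DP over nasal neutrophils the median (-1.36) was -2.002 with upper-quartile scaling. The 3 members at least 4-fold lower in DP than in nasal neutrophils became 1 with a pseudocount of 5 and 1 with a filter of 5 FPKM, where Egr3, Nr4a2 and Nr4a3 drop out, and 5 with upper-quartile scaling. The 9 members at least 4-fold higher in nasal than in blood neutrophils became 6, and the 6 in DP over blood neutrophils became 4, with a pseudocount of 5; over all alternatives these counts ran from 6 to 9 and from 4 to 7. At a 2-fold threshold, in DP over nasal neutrophils, 5 were lower and 1, Egr2, was higher. Among all tested genes, DP over nasal neutrophils gave 903 higher and 388 lower at 4-fold, 360 and 773 with centred ratios and 350 and 734 with upper-quartile scaling. Centring also changed the split for nasal over blood neutrophils, from 1408 and 346 to 968 and 609. For DP over blood neutrophils it went from 2577 and 383 to 1116 and 971, and to 1594 and 788 with upper-quartile scaling. No paired analysis was possible because each group is 1 library. Levels under about 1 FPKM, which include Egr1 and Egr2 in blood neutrophils and Egr3 and Nr4a3 in DP, are those that the depth limits.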

Other observations

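Single members had near neighbours of different kinds in the plane of the nasal to blood and DP to nasal ratios, among genes with a mean of 5 FPKM or more. These were listed after the values were seen. The genes nearest to Egr1 were Ccl4, Saa3 and Ccl3, of which Ccl3 and Ccl4 encode chemokines for leukocytes, at distances of 0.52 to 0.90 log2 units. Those nearest to Ier3 were Ddit4, Csrnp1 and Olr1, at 0.32 to 0.45. Those nearest to Nr4a1 included Ckb, a creatine kinase gene, and Nsg1, a neuronal gene.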
